A study of Homo sapiens with 6 samples.

Results

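Among the 19838 protein-coding genes of the count table, 43 lay below 1 CPM (the count divided by the library total and multiplied by 1000000) in each of 3 control libraries and at 4 CPM or more in each of 3 libraries of CD69-overexpressing cells. ITGAD, CD36 and SLAMF8 passed the same thresholds and were left out by name, and BLNK and the HLA genes were also left out by name. CD69 is a lectin-like receptor that leukocytes show early after activation. RNA came from NB4 cells, a long-established human acute promyelocytic leukaemia line of malignant granulocyte precursors, grown in RPMI medium with serum and without any drug. Libraries labelled as overexpressing came from cells transduced with a CD69 lentivirus, and the control libraries, whose genotype label is wild-type, came from vector control cells per the design text. All 6 libraries carry the same batch label. The labels do not say whether the 3 libraries of a group came from separate transductions, so p-values reflect only how far these libraries differ and that spread may be technical. Since the same contrast chose the 43 genes, their levels are given as a description and carry no test.

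A gene that is off in one cell type is usually kept so by the lack of its activating factors or by closed chromatin, and many promoters with dense CpG sites can be open in tissues where the gene is barely transcribed. Bulk RNA sequencing sees such a gene only as an average over all cells of a culture, so a low level in every cell and a high level in few cells look alike. In a comparison of bulk samples, fewer cells of a type and less RNA per cell cannot be told apart.

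Library totals lay between 51543550 and 57463020 counts, so that 1 CPM stood for 51.5 to 57.5 counts. CD69 itself went from 77.4 ± 7.5 CPM without the lentiviral CD69 to 97.9 ± 2.69 CPM with it (SD, n = 3; log2 difference 0.33, SE 0.07, adjusted p = 0.0153 by edgeR, and 0.0618 without overexpressing replicate 2), and the counts do not separate the introduced transcript from the cells' own. Of the granule genes that mark promyelocytes, ELANE, PRTN3, AZU1 and CTSG were above 100 CPM in every library, while MPO was at or below 1.45 CPM in all 6. Replicates were compared over all well-counted genes by chi-square per degree of freedom, on counts divided by 4. Within the overexpressing group it was 4.49 between replicates 1 and 2, and 9.02 and 8.13 between these and replicate 3. Among the controls it was 2.36 between replicates 1 and 2, and 14.1 and 12.9 between these and replicate 3. In some gene lists, however, CD69-overexpressing replicate 1 stood apart from replicates 2 and 3 of its group. A list of B cell genes summed to 112 CPM in that replicate against 246 and 255 CPM in the other two, and to 106 to 114 CPM in the controls. The levels of the 43 genes summed to 483, 474 and 495 CPM in overexpressing replicates 1, 2 and 3 and to 16.2, 21.2 and 18.3 CPM in control replicates 1, 2 and 3, but the thresholds had to be met in each library, so a gene low in replicate 1 could not be among them. Without replicate 1 of the overexpressing cells the thresholds took 58 genes, all 43 among them, against 45 and 47 without replicate 2 or 3.

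Low in the controls did not mean absent. Of the 43 genes, none had 0 counts in every control, 8 had 0 counts in at least 1 control, and 13 had no more than 20 counts in any control. At the other end, 16 genes had a mean of 0.5 CPM or more in the controls. The median gene stood at 0.455 CPM in the controls and at 6.82 CPM in the overexpressing libraries. The ratio of the mean levels ran from 5.31 for IFTAP to 383 for WFDC1, with a median of 17.1. WFDC1 had 1, 2 and 5 counts in control replicates 1, 2 and 3, so the size of its ratio is uncertain. All 43 passed edgeR's test (adjusted p under 0.05, higher), as did 14.2% of all tested genes and 16.4% of tested coding genes, while 9.94% of all tested genes were lower, but the thresholds used that contrast and nothing is read from the count.

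**Figure D1:**
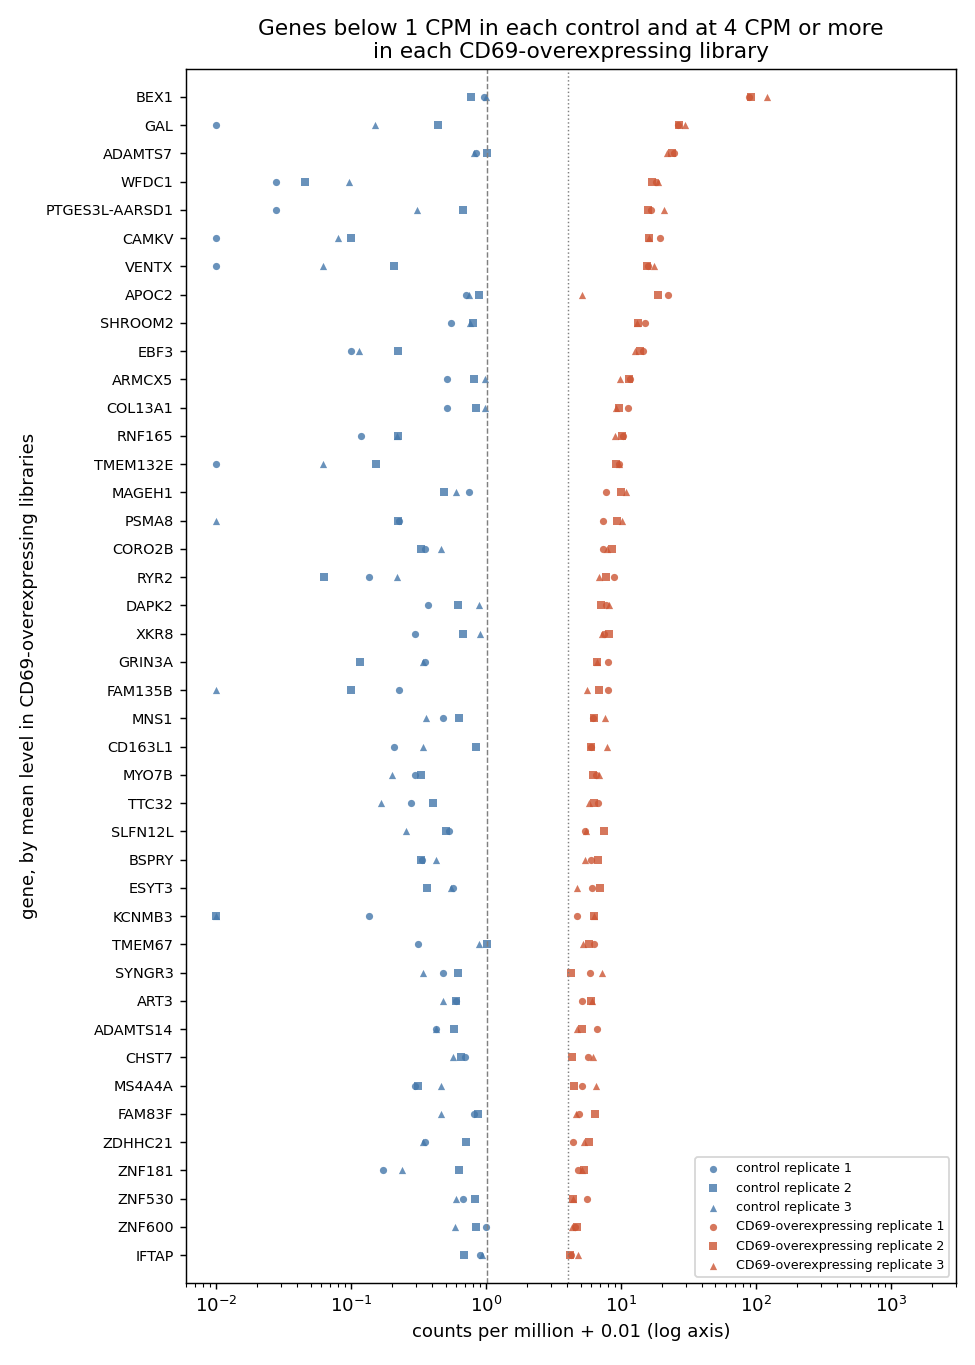
Level of 42 of the 43 genes in each library, in CPM plus 0.01 on a log axis; blue marks are the 3 control libraries, orange marks the 3 CD69-overexpressing libraries, and the dashed and dotted lines are the thresholds of 1 and 4 CPM. BEX1 was highest, at 89.0 to 120.0 CPM, and APOC2 was the gene whose overexpressing libraries lay farthest apart, at 5.12 to 22.2 CPM.

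The thresholds cut through a continuous range. Just inside the control limit, the highest control level was 0.9961 CPM for ADAMTS7 and for TMEM67 and 0.9919 CPM for BEX1. Just outside it were PSTPIP2 and SLC46A1, both at 1.005 CPM in their highest control, and CRACDL at 1.079 CPM. CRACDL reached 33.8 to 37.0 CPM in the overexpressing libraries, above all of the 43 genes except BEX1. On the other limit, IFTAP and SYNGR3 were inside with lowest overexpressing levels of 4.179 and 4.214 CPM, and TESK2 and PNMA6A missed it at 3.93 and 3.925 CPM. In the opposite direction, 1 coding gene without a symbol in the name table was at 4 CPM or more in each control and below 1 CPM in each overexpressing library.

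**Figure D2:**
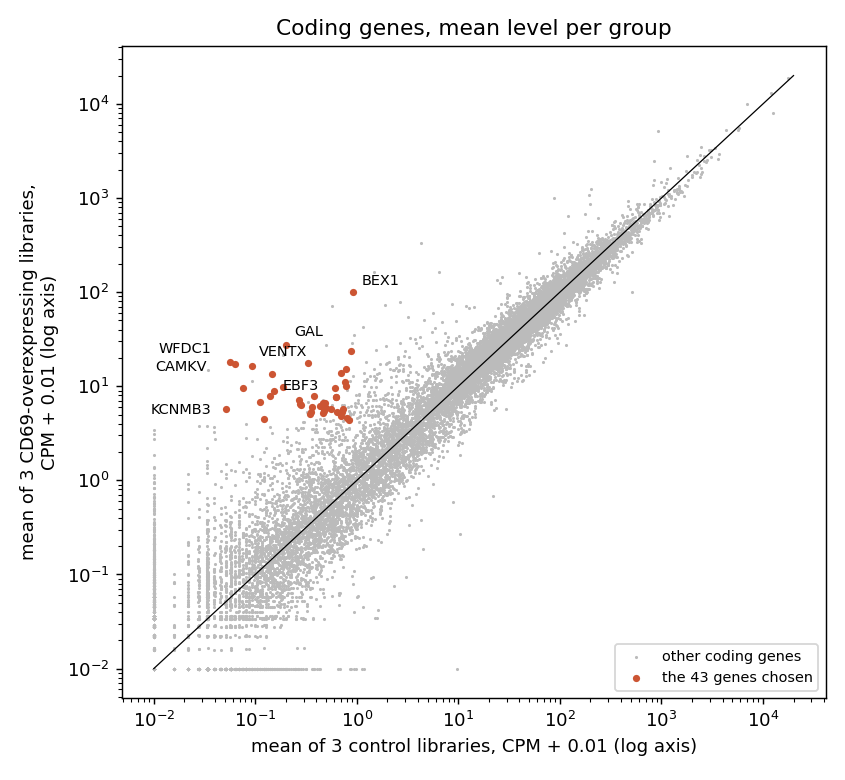
Mean level of every coding gene of the table in the 3 CD69-overexpressing libraries (vertical) against the 3 controls (horizontal), in CPM plus 0.01 on log axes, with the 43 genes in orange and the line of equality. The 43 genes fill a corner set by the thresholds, in which WFDC1, CAMKV and KCNMB3 lie farthest to the left, with control means of 0.0468, 0.0528 and 0.0419 CPM.

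The sequence before the start of these genes was varied, and 6 stretches are shown because they span that range, from the CpG-dense start of EBF3 to the CpG-poor starts of the macrophage genes and KCNMB3. RefSeq promoters (GRCh38.p14, 250 bases before to 50 bases after the start) were matched by symbol for 31 of the 43 genes, and those with no entry included FAM135B, FAM83F, GAL, MAGEH1, PTGES3L-AARSD1, RNF165, SHROOM2, SYNGR3, TMEM67, WFDC1 and ZNF600. The RefSeq start lay more than 1 kb from the outermost GENCODE start for 5 of the 31, among them MS4A4A (95.0 kb downstream of it), CD163L1 (35.7 kb) and KCNMB3 (7.11 kb), and which start these cells used was not examined. The stretches lie upstream of the RefSeq start, read 5′ to 3′ on the strand of the gene, and have each CpG in capitals. They are EBF3 (chr10:129964275-129964524, minus strand), BEX1 (chrX:103064241-103064421, minus strand), PSMA8 (chr18:26133619-26133851, plus strand), MS4A4A (chr11:60280416-60280540, plus strand), CD163L1 (chr12:7444186-7444403, minus strand) and KCNMB3 (chr3:179259892-179260141, minus strand).
EBF3: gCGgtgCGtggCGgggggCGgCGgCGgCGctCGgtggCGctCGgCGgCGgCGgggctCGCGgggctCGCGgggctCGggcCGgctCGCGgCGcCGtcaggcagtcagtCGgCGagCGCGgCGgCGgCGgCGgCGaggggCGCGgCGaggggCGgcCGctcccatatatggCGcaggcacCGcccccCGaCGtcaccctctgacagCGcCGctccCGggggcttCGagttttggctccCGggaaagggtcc
BEX1: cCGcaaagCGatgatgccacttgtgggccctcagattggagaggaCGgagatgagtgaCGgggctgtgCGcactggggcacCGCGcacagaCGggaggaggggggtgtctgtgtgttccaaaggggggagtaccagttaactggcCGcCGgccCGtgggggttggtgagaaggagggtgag
PSMA8: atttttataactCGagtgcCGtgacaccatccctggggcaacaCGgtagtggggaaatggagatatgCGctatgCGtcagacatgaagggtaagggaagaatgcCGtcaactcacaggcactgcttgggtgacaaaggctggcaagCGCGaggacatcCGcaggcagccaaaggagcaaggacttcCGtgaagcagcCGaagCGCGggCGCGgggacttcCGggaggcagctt
MS4A4A: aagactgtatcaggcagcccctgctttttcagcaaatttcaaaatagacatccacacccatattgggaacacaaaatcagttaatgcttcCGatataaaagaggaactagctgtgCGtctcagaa
CD163L1: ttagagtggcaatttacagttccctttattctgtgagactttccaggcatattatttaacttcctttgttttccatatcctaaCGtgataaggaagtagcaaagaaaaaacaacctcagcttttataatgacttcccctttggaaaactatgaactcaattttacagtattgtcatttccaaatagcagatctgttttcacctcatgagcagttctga
KCNMB3: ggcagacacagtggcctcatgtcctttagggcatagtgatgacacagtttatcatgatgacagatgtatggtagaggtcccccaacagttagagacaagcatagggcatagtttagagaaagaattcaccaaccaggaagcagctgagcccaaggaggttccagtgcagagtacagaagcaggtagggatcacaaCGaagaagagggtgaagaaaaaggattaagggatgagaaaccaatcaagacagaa

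CpG sites in the stretch numbered 46 for EBF3, 16 for PSMA8, 11 for BEX1, 2 for MS4A4A, and 1 each for CD163L1 and KCNMB3. The stretches differ in length, at 250 bases for EBF3 and KCNMB3, 233 for PSMA8, 218 for CD163L1, 181 for BEX1 and 125 for MS4A4A. The shorter ones end some way before the start, so these counts cannot be compared directly. Over the same 300 bases, EBF3 had 52 CpG sites, PSMA8 and BEX1 25 each, and MS4A4A, CD163L1 and KCNMB3 2 each. Over the full 300 bases, the CpG ratio (CpG sites observed over the number its C and G content gives) was 1.15 for EBF3, 0.922 for PSMA8 and 0.769 for BEX1. It was 0.192 for CD163L1, 0.134 for MS4A4A and 0.12 for KCNMB3. The median ratio of the 31 promoters was 0.737, beside 0.763 for the 15842 coding promoters of the table. A ratio above 0.6 was found in 21 of the 31 (67.7%) and in 65.7% of all coding promoters. Both values lay close to those of all coding promoters. TMEM132E (1.16) and EBF3 had the highest ratios, and the low end also held SLFN12L (0.145), MYO7B (0.188) and CORO2B (0.238).

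Short motifs were searched on both strands of the same 300 bases. The letters CCCNNGGG, the core that EBF proteins bind, were in 7 of the 31 promoters (22.6%, against 21.6% of all coding promoters), among them those of EBF3, BEX1, PSMA8, COL13A1 and VENTX. TATAAA was in 6 (19.4%, against 9.63%), namely MS4A4A, CD163L1, APOC2, VENTX, COL13A1 and PSMA8. GAGGAA, a core bound by the myeloid factor PU.1, was in 22.6% against 27.6%, TGTGGT, bound by RUNX factors, in 9.68% against 10.8%, and AGATAA, bound by GATA factors, in 6.45% against 7.57%. TGANTCA, bound by AP-1, was in 3.23% against 5.75%. Neither GCGTGGGCG, bound by EGR factors, nor TGACGTCA, bound by CREB factors, was in any of the 31, against 1.09% and 2.59% of all coding promoters. A match says only that these letters are present.

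By the tissue in which each gene is best known, 12 of the 43 genes are expressed in many tissues, 10 in the nervous system, 5 in blood cells, 5 in testis or ciliated cells, 4 in connective tissue and vessel wall, 4 in epithelium, 2 in heart muscle and 1 in liver and macrophages. These places were assigned by hand from general knowledge and only to the 43 genes. The shares among all coding genes were not determined, so no leaning to a tissue is read from these counts. The 10 nervous system genes (BEX1, GAL, CAMKV, EBF3, RNF165, TMEM132E, CORO2B, GRIN3A, FAM135B and SYNGR3) summed to 2.72 CPM in the controls and 205.0 CPM in the overexpressing libraries. BEX1 alone made up 20.7% of the summed level of all 43 genes in the overexpressing libraries.

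Of the secreted and matrix proteins, WFDC1, a small inhibitor-like protein with a WAP domain known from prostate stroma, showed the largest ratio of means. WFDC1 (ENSG00000103175; chromosome 16, 84294646 to 84329851, plus strand) was at 0.0179, 0.0356 and 0.087 CPM in the controls and at 18.1, 16.9 and 18.8 CPM in the overexpressing libraries. The overexpressing libraries lay close together, and the thresholds required a gap to every control. GAL (ENSG00000069482; chromosome 11, 68683779 to 68691175, plus strand) encodes the precursor of the neuropeptide galanin. It was at 0, 0.427 and 0.139 CPM in the controls and at 26.3, 26.7 and 29.5 CPM in the overexpressing libraries, a ratio of means of 146. Galanin acts through 3 receptors, none of which was above 0.155 CPM in any library. ADAMTS7, a secreted metalloprotease that cleaves the cartilage protein COMP, averaged 0.874 ± 0.106 CPM over the controls and 23.5 ± 1.35 CPM over the overexpressing libraries (SD, n = 3), while COMP was listed at 0 in all 6. COL13A1, a collagen that stays in the plasma membrane, was at 0.771 ± 0.243 and 10.0 ± 1.14 CPM, and ADAMTS14, which trims the ends of fibrillar procollagens, at 0.467 ± 0.0889 and 5.48 ± 1.01 CPM (SD, n = 3).

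APOC2, the cofactor that activates lipoprotein lipase, was the exception in evenness. It was at 0.7, 0.872 and 0.731 CPM in the controls and at 22.2, 18.7 and 5.12 CPM in overexpressing replicates 1, 2 and 3. The read-through gene APOC4-APOC2 shares 55.4% of the exon bases of APOC2 on the same strand, and its levels ran the other way in these libraries, at 3.08, 4.13 and 26.7 CPM. Added together, the 2 genes were at 0.951, 0.872 and 0.731 CPM in the controls and at 25.3, 22.8 and 31.9 CPM in the overexpressing libraries, so the sum was more even than either gene. The neighbouring apolipoprotein genes did not pass the test: APOE was at 1.51 ± 0.231 and 1.72 ± 0.207 CPM (SD, n = 3; adjusted p = 0.632, edgeR) and APOC1 at 0.265 ± 0.0603 and 0.155 ± 0.135 CPM (SD, n = 3; adjusted p = 0.606, edgeR), while APOC4 was listed at 0 in all 6 libraries.

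**Figure D3:**
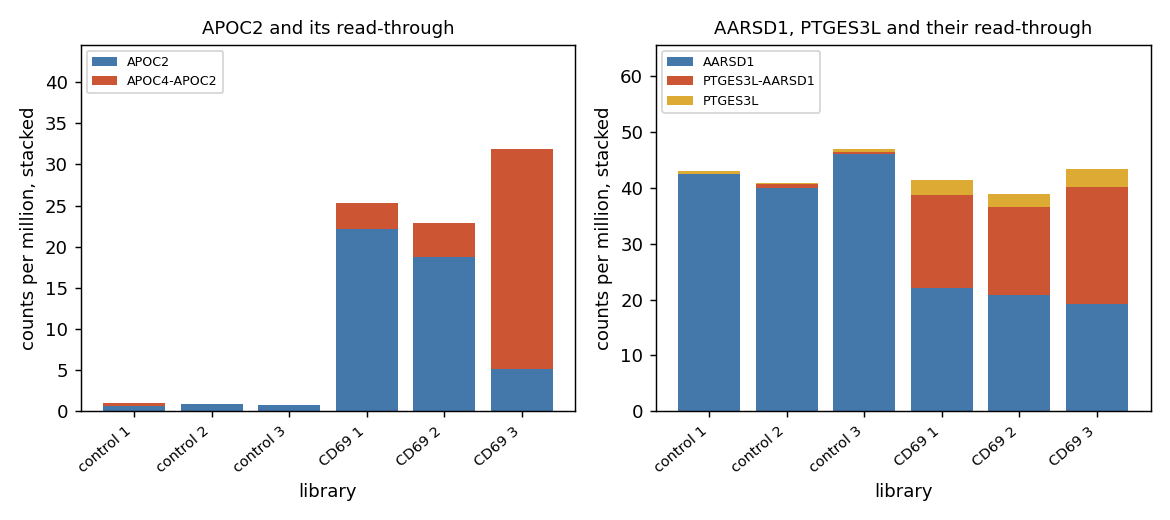
Stacked levels in CPM of genes that share exons, for each of the 6 libraries: APOC2 with its read-through APOC4-APOC2 (left), and AARSD1, PTGES3L and their read-through PTGES3L-AARSD1 (right). The left stacks differ between the groups in height, at most 0.951 CPM against at least 22.8 CPM, whereas the right stacks stay between 39.0 and 46.9 CPM and differ in how the counts are divided.

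PTGES3L-AARSD1, a read-through of 2 neighbouring genes on chromosome 17 (42950526 to 42980528, minus strand), was at 0.0179, 0.658 and 0.296 CPM in the controls and at 16.7, 15.7 and 20.9 CPM in the overexpressing libraries. It shares 53.2% of its exon bases with AARSD1, an editing protein for misacylated tRNA, and 42.8% with PTGES3L. AARSD1 fell from 42.9 ± 3.05 to 20.8 ± 1.4 CPM (SD, n = 3, log2 ratio -1.05, SE 0.09, adjusted p = 0.000241, edgeR). The 3 genes together were at 43.6 ± 3.02 CPM in the controls and 41.3 ± 2.26 CPM in the overexpressing libraries (SD, n = 3), and the groups overlapped. For this gene the counts do not show how much was a new transcript and how much a different assignment of reads from shared exons.

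Among the transcription factors, VENTX and EBF3 lie 3.27 Mb apart near the end of chromosome 10. VENTX (ENSG00000151650; 133237404 to 133241929, plus strand), a homeobox factor of blood progenitors and monocytes, was at 0, 0.196 and 0.0522 CPM in the controls and at 15.7, 15.5 and 17.6 CPM in the overexpressing libraries. EBF3 (ENSG00000108001; chromosome 10, 129835283 to 129963841, minus strand), an early B cell factor with a role in neural development, was at 0.0897, 0.213 and 0.104 CPM and at 14.4, 13.7 and 12.7 CPM. Both were even across the overexpressing libraries, and a low level in every control was a condition for being chosen. The KRAB zinc finger genes ZNF181, ZNF530 and ZNF600, all on chromosome 19, were lower: their overexpressing means were 5.09, 4.78 and 4.54 CPM and their control means 0.337, 0.691 and 0.799 CPM.

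BEX1 (ENSG00000133169; chromosome X, 103062651 to 103064240, minus strand), a small adaptor of neurotrophin receptor signalling, was at 0.951, 0.765 and 0.992 CPM in the controls and at 89.0, 92.0 and 120.0 CPM in the overexpressing libraries. It also had the highest level per kilobase of exon, 116 CPM per kb, ahead of GAL at 21.2, APOC2 at 11.7, PTGES3L-AARSD1 at 7.45 and MAGEH1 at 6.48 CPM per kb. CAMKV (ENSG00000164076; chromosome 3, 49857988 to 49870222, minus strand), a neuronal kinase-like protein without catalytic activity, was at 0, 0.0889 and 0.0696 CPM and at 19.4, 16.2 and 16.1 CPM. The remaining signalling genes were DAPK2, a calcium-dependent death-associated kinase of granulocytes, at 0.611 ± 0.256 and 7.68 ± 0.514 CPM, and FAM83F at 0.705 ± 0.22 and 5.3 ± 0.976 CPM (SD, n = 3).

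Several of the genes encode channels or their subunits. RYR2, the calcium release channel of the heart muscle's sarcoplasmic reticulum, was at 0.129 ± 0.0778 CPM in the controls and 7.81 ± 1.02 CPM in the overexpressing libraries (SD, n = 3). GRIN3A, an accessory subunit of NMDA receptors, was at 0.259 ± 0.132 and 7.11 ± 0.786 CPM, and KCNMB3, an accessory subunit of the BK potassium channel, at 0.0419 ± 0.0725 and 5.78 ± 0.948 CPM (SD, n = 3). GRIN1, the obligatory NMDA subunit, was at or below 0.215 CPM in every library. Another NMDA subunit, GRIN2D, rose from 1.2 ± 0.0936 to 2.83 ± 0.358 CPM (SD, n = 3; adjusted p = 0.00547, edgeR). GRIN2A, GRIN2C and GRIN3B did not pass, and GRIN2B was listed at 0 in all 6 libraries. KCNMA1, the pore of the BK channel, was at 0.0718, 2.69 and 0.139 CPM in the controls and at 0, 0.533 and 0 CPM in the overexpressing libraries. For KCNMB3 the identity of the counts is less sure, since 37.9% of its exon bases lie opposite exons of PIK3CA (21.9 and 31.2 CPM), whether counting used strand is not given in the sources used here, and 9.62% are shared on the same strand with the pseudogene LRRFIP1P1 (0.119 and 3.3 CPM).

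Cytoskeletal genes were SHROOM2, which shapes epithelial cells through myosin, at 0.69 ± 0.132 and 13.8 ± 0.965 CPM, and CORO2B, a neuronal actin-binding coronin, at 0.371 ± 0.0711 and 7.89 ± 0.638 CPM (SD, n = 3). MYO7B, a myosin of the intestinal brush border, was at 0.266 ± 0.0669 and 6.53 ± 0.294 CPM, and MNS1, a component of sperm flagella and cilia, at 0.479 ± 0.138 and 6.7 ± 0.799 CPM (SD, n = 3). Of the exon bases of MNS1, 18.5% lie opposite TEX9, which was itself at 0.685 and 1.43 CPM.

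Surface proteins were TMEM132E, known from inner ear hair cells, at 0, 0.142 and 0.0522 CPM in the controls and at 9.71, 9.14 and 9.64 CPM in the overexpressing libraries, which made it the most even of the 43 genes there (highest over lowest 1.06). MS4A4A, a tetraspan protein of macrophages, was at 0.347 ± 0.0914 and 5.37 ± 1.03 CPM, and CD163L1, a scavenger receptor of macrophages, at 0.455 ± 0.337 and 6.62 ± 1.11 CPM (SD, n = 3). CD163, the better-known macrophage receptor next to CD163L1, was listed at 0 in 5 libraries and at 0.142 CPM in overexpressing replicate 2. The ciliary membrane protein TMEM67 was at 0.724 ± 0.368 and 5.76 ± 0.529 CPM and ART3, of the ADP-ribosyltransferase family, at 0.55 ± 0.0692 and 5.7 ± 0.54 CPM (SD, n = 3).

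Enzymes and proteins of protein turnover included the ubiquitin ligase RNF165 of developing neurons (0.177 ± 0.0598 and 9.78 ± 0.73 CPM) and MAGEH1, of the MAGE family of ligase partners (0.603 ± 0.128 and 9.48 ± 1.57 CPM; SD, n = 3). PSMA8, the testis form of a proteasome core subunit, was at 0.215, 0.213 and 0 CPM in the controls and at 7.38, 9.25 and 10.2 CPM in the overexpressing libraries. Its ubiquitous counterpart PSMA7 was at 160.0 ± 10.9 and 188 ± 15.6 CPM (SD, n = 3, adjusted p = 0.115, edgeR). PSMA7 passed edgeR's test without control replicate 3 (adjusted p = 0.0433) and with the replicate number as a block (adjusted p = 0.0117). The sulphotransferase CHST7 (0.626 ± 0.0637 and 5.37 ± 0.972 CPM) and the palmitoyltransferase ZDHHC21 (0.455 ± 0.207 and 5.15 ± 0.677 CPM; SD, n = 3) completed this group.

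Genes of membrane lipids and vesicles were XKR8, which scrambles phosphatidylserine in dying cells (0.611 ± 0.303 and 7.62 ± 0.494 CPM), and ESYT3, a tether between endoplasmic reticulum and plasma membrane (0.484 ± 0.111 and 5.91 ± 1.16 CPM; SD, n = 3). SYNGR3, a synaptic vesicle protein, was at 0.467, 0.605 and 0.331 CPM and at 5.84, 4.21 and 7.18 CPM, which after APOC2 was the second largest gap among overexpressing libraries (highest over lowest 1.7). IFTAP, linked to ciliary transport, had the smallest ratio of means, at 0.832 ± 0.136 and 4.41 ± 0.331 CPM (SD, n = 3). Genes whose function is little known were ARMCX5 (0.759 and 11.0 CPM), FAM135B (0.101 and 6.82 CPM), TTC32 (0.272 and 6.26 CPM), SLFN12L (0.421 and 6.11 CPM) and BSPRY (0.354 and 6.04 CPM), given as group means.

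A level of at least 4 CPM in each overexpressing library was a condition for being chosen, which removes uneven genes, so the spread among these libraries is given as a description only. The median coefficient of variation was 11.1%, and in 41 of the 43 genes the highest library was less than 1.5 times the lowest, APOC2 and SYNGR3 being the exceptions. Relative to the mean of the group, the median log2 level of the 43 genes was 0.01, -0.02 and -0.08 in replicates 1, 2 and 3. The 1963 other coding genes that rose and had at least 4 CPM gave 0.01, 0.01 and -0.02. Replicate 1 was the lowest of the group for 25.6% of the 43 genes and for 26.2% of those 1963 genes.

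Other genes were then examined, from 10 gene lists that hold at least 1 of the 43 genes. These lists are wider than families and not all coding. For example, the lipoprotein list holds APOBEC3 genes such as APOBEC3B, and the ion channel list the noncoding KCNQ1OT1. Of the 970 tested other genes of the 10 lists, 159 rose (16.4%) and 62 fell (6.39%), against 16.4% and 12.5% of all tested coding genes. Without overexpressing replicate 1 the number that fell was 114, and it was 37, 35 and 38 without control replicate 1, control replicate 2 or overexpressing replicate 2, the last of which also lowered the number that rose to 101. The zinc finger list had 93 genes that rose and 24 that fell of 512 tested, with a median log2 fold change of 0.15. The ion channel list had 18 and 9 of 118, the neuronal list 16 and 6 of 111, the homeobox list 13 and 10 of 85, and the matrix list 13 and 10 of 113.

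In the small families, single relatives moved, named here after their values were seen. Of the 6 tested relatives of BEX1 in the BEX and TCEAL family, TCEAL8, a transcription elongation factor-like protein, rose from 1.18 ± 0.188 to 11.4 ± 1.03 CPM (SD, n = 3, log2 ratio 3.26, SE 0.18, adjusted p = 3.43e-05, edgeR), and the other 5 did not pass. EBF4 rose from 0.193 ± 0.191 to 3.51 ± 0.589 CPM (SD, n = 3, log2 ratio 4.14, SE 0.82, adjusted p = 0.00913, edgeR). EBF1, the B cell member, was at 4.14 ± 1.72 and 3.42 ± 0.77 CPM (SD, n = 3; adjusted p = 0.599, edgeR). Besides GAL, the neuropeptide list held 2 genes that rose of 15 tested: PDYN, the prodynorphin gene, from 0.0711 ± 0.0718 to 3.95 ± 0.0964 CPM, and ADM2, from 1.07 ± 0.0677 to 4.82 ± 0.637 CPM (SD, n = 3; adjusted p = 0.000806 and 0.00032, edgeR). In the list of WAP domain proteins and related inhibitors, SLPI, an inhibitor of neutrophil elastase, rose from 3.9 ± 0.384 to 11.7 ± 1.85 CPM (SD, n = 3; adjusted p = 0.00058, edgeR). SPINT1 fell there from 42.5 ± 5.33 to 11.4 ± 1.44 CPM (SD, n = 3; adjusted p = 9.39e-05, edgeR).

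Partners and paralogs of the 43 genes, 103 in all, were chosen by their known roles. Of the 71 tested, 14 rose (19.7%) and 5 fell (7.04%), with a median log2 fold change of 0.00, beside 16.4% and 12.5% of all tested coding genes with a median of -0.01. Of these 19 calls, 8 were lost in at least 1 alternative and are not described. KCNMB1, another accessory subunit of the BK channel, rose from 0.0237 ± 0.0411 to 2.19 ± 0.56 CPM (SD, n = 3; adjusted p = 0.00128, edgeR). XKR9, a scramblase related to XKR8, rose from 0.538 ± 0.105 to 2.71 ± 0.596 CPM, and NPTN, which carries XKR8 to the plasma membrane, from 70.2 ± 5.87 to 96.3 ± 1.89 CPM (SD, n = 3; adjusted p = 0.000985 and 0.00311, edgeR). Relatives of MS4A4A diverged. MS4A7 rose from 4.89 ± 0.312 to 10.9 ± 0.901 CPM and MS4A6A fell from 11.9 ± 0.812 to 6.7 ± 0.594 CPM (SD, n = 3; adjusted p = 0.000941 and 0.00268, edgeR). Among chondroitin sulphate enzymes, which include CHST7, the synthase CHSY1 rose from 324 ± 43.7 to 511 ± 34.9 CPM and the sulphotransferase CHST11 fell from 123 ± 5.45 to 79.8 ± 5.71 CPM (SD, n = 3; adjusted p = 0.00258 and 0.000567, edgeR). DAPK1, a paralog of DAPK2, rose from 47.4 ± 6.75 to 73.3 ± 8.44 CPM, and MYO7A, the inner ear paralog of MYO7B, from 8.6 ± 0.397 to 15.3 ± 0.123 CPM (SD, n = 3; adjusted p = 0.00724 and 0.00115, edgeR). SYNGR1, the brain paralog of SYNGR3, fell from 38.6 ± 4.43 to 26.2 ± 1.51 CPM (SD, n = 3; adjusted p = 0.00874, edgeR).

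Defining genes of heart muscle, testis and nervous system were mostly too low to be tested. Of those tested, 2 of 8 for heart muscle, 2 of 8 for testis and 6 of 10 for nervous system, none passed. Of 8 heart muscle genes, 7 were below 1 CPM in all 6 libraries, with MYH7 and ACTC1 listed at 0 throughout, and their sum was 1.63 to 2.33 CPM in the controls and 0.675 to 1.57 CPM in the overexpressing libraries. All 8 testis genes were below 1 CPM in every library, and their sum was at most 1.26 CPM. Of 10 nervous system genes, 5 were below 1 CPM in all libraries, and the sum was 128 to 161 CPM in the controls and 131 to 154 CPM in the overexpressing libraries, most of it MBP. Of 8 liver genes, 6 were below 1 CPM in all libraries and SERPINA1, which monocytes also express, rose, from 8.72, 10.7 and 9.28 CPM to 51.3, 45.4 and 51.1 CPM (log2 fold change 2.36, adjusted p = 1.32e-05, edgeR).

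Sums of connective tissue and epithelial genes set overexpressing replicates 2 and 3 apart from the other 4 libraries. A list of 8 connective tissue genes, with FN1 the most abundant, summed to 140.0 to 155 CPM in the controls, to 144 CPM in overexpressing replicate 1, and to 33.4 and 36.1 CPM in replicates 2 and 3. For 8 epithelial genes, led by KRT8, the sums were 113 to 120.0 CPM over the controls, 117 CPM for overexpressing replicate 1, and 34.3 and 42.6 CPM for replicates 2 and 3. Among the 8 epithelial genes, only the adhesion molecule EPCAM passed, and it fell, from 2.39, 3.06 and 1.64 CPM in the controls to 1.23, 1.24 and 0.97 CPM (log2 fold change -1.04, adjusted p = 0.0315, edgeR). That call was lost with no filter (adjusted p = 0.0663) and without control replicate 1 or 2 or any 1 of the overexpressing libraries (0.0544 to 0.106). For comparison, SHROOM2 was at 14.9, 13.4 and 13.1 CPM in overexpressing replicates 1, 2 and 3, and ADAMTS7 at 24.5, 24.0 and 22.0 CPM. For all of the 43 genes assigned to these tissues, replicate 1 was set against the mean of replicates 2 and 3. The log2 ratio ran from 0.02 (WFDC1) to 0.43 (ADAMTS14) in the 4 genes of connective tissue and vessel wall. In the 4 epithelial genes it ran from -0.18 (FAM83F) to 0.17 (SHROOM2). The thresholds bound all these levels from below in each library. The part of these markers, or of the B cell genes, in the levels of the 43 genes was not tested.

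By chromosome, the X carried the most, with 5 of the 43 genes (11.6%, against 4.23% of coding genes and 6.03% of those below 1 CPM in each control): BEX1, SHROOM2, ARMCX5, MAGEH1 and CHST7. Of the 468 tested coding genes of the X, 50.9% rose, against 15.3% outside it, and their median log2 fold change was 0.46. Chromosomes 3, 10, 15 and 19 carried 4 each, and chromosomes 5, 6, 7, 13, 14, 20 and 21 none. Chromosome 15 held ADAMTS7, CORO2B, DAPK2 and MNS1, where its share of the coding genes below 1 CPM in each control would give 1.1, and the median log2 fold change of its tested coding genes was 0.14. For chromosome 20, which had none, that median was 0.37.

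**Figure D4:**
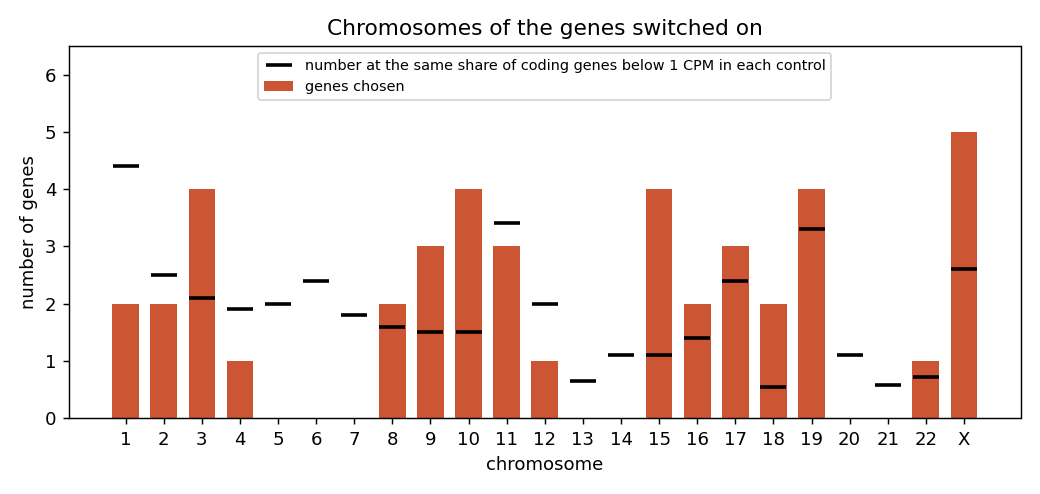
Number of the 43 genes on each chromosome (bars) beside the number that the chromosome's share of the coding genes below 1 CPM in each control would give (black dashes). The X has 5 against 2.6, chromosome 15 has 4 against 1.1, and chromosome 1 has 2 against 4.4.

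Positions were scattered. Only ARMCX5 and BEX1 started within 500 kb of each other, 0.465 Mb apart on the X, and the next pairs were COL13A1 and ADAMTS14 at 0.871 Mb on chromosome 10 and TMEM132E and SLFN12L at 0.958 Mb on chromosome 17. Near BEX1 and in the X-linked families of BEX1 and ARMCX5, some genes rose and others did not pass. NXF3, an RNA export factor family member that starts 28.9 kb from BEX1, was at 6.23, 6.51 and 6.79 CPM in the controls and at 160.0, 159 and 171 CPM in the overexpressing libraries (log2 fold change 4.64, SE 0.08, adjusted p = 3.08e-07, edgeR). All 3 overexpressing libraries lay far above the controls. ARMCX3, a relative of ARMCX5, rose from 3.65 ± 0.69 to 7.35 ± 0.202 CPM (SD, n = 3; adjusted p = 0.00717, edgeR). ARMCX1, ARMCX2 and ARMCX6 did not pass (adjusted p = 0.455, 0.315 and 0.273, edgeR), nor did BEX3, TCEAL1, TCEAL3, TCEAL4 and TCEAL9.

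Coding genes outside the 43 that start within 100 kb of one of them numbered 120, of which 95 were tested. Of these, 21 rose (22.1%) and 6 fell (6.32%), beside 16.4% and 12.5% of all tested coding genes, with a median log2 fold change of 0.19 against -0.01. The difference in shares was not tested, and the number that fell was 3 without overexpressing replicate 2. Leaving out neighbours that share exons with one of the 43 genes gave 19 and 5 of 92. MRAS, a small GTPase 86.9 kb from ESYT3, rose from 5.88 ± 0.823 to 41.2 ± 1.64 CPM (SD, n = 3, log2 ratio 2.80, SE 0.13, adjusted p = 1.38e-05, edgeR). ZNF134, 14.3 kb from ZNF530, rose from 1.28 ± 0.179 to 8.2 ± 0.85 CPM (SD, n = 3; adjusted p = 9.49e-05, edgeR) and was 1 of the 4 genes that rose among the 8 tested neighbours of ZNF530.

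IFI35, an interferon-induced gene 26.2 kb from PTGES3L-AARSD1, rose from 1.17 ± 0.174 to 4.92 ± 0.488 CPM, and UBA7, the activating enzyme for the ubiquitin-like ISG15, 56.3 kb from CAMKV, from 20.1 ± 1.29 to 38.7 ± 0.66 CPM (SD, n = 3; adjusted p = 0.000377 and 0.00028, edgeR). Of the neighbours that fell, AARSD1 shares exons with PTGES3L-AARSD1, and MS4A6A starts 1.04 kb from the outermost GENCODE start of MS4A4A, which lies 95.0 kb from its RefSeq start. The third, CLASRP, a splicing regulator 93.1 kb from APOC2, fell from 79.8 ± 2.42 to 62.5 ± 2.61 CPM (SD, n = 3, log2 ratio -0.36, SE 0.07, adjusted p = 0.00752, edgeR). VENTX had 4 tested neighbours, none of which passed the test, and WFDC1 and GAL had 1 each, ATP2C2 and TESMIN, both of which rose, although ATP2C2 did not pass with no filter (adjusted p = 0.0826, edgeR), without control replicate 3 (0.0961) or without any 1 of the overexpressing libraries (0.0589 to 0.0788). EBF3 had no coding neighbour within this distance.

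**Figure D5:**
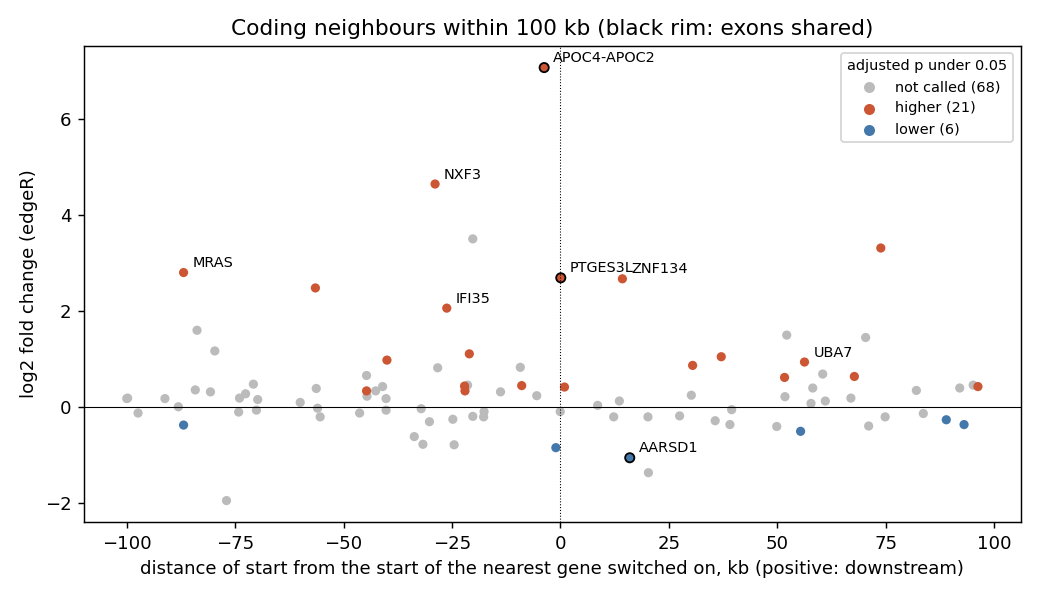
Log2 fold change (edgeR) of the 95 tested coding neighbours against the distance of their start from the start of the nearby gene, in kb; orange points rose, blue points fell, grey points did not pass, and a black rim marks shared exons. NXF3 at 4.64, MRAS at 2.80 and ZNF134 at 2.67 rose without sharing exons with one of the 43 genes.

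Exons of other genes touched those of 12 of the 43 genes. On the same strand this held for 5 genes and on the opposite strand for 9, and 31 of the 43 had no overlap. Apart from the pairs given above, the overlaps were with genes at most at 1.82 CPM, such as RAG2 opposite 21.8% of the exon bases of IFTAP (0 and 0.0776 CPM) and ARMCX5-GPRASP2 on 13.6% of those of ARMCX5 (0.194 and 1.82 CPM).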

How the data were processed

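Poly(A) RNA of 3 control and 3 CD69-overexpressing NB4 samples was sequenced in pairs from strand-specific libraries, per the labels' protocols. The authors deposited estimated counts per gene, whole numbers that rounding did not change, made with FastQC, fastp, STAR and featureCounts of Subread on GRCh38 (hg38), per the submitters' processing notes. Versions, annotation and strand setting: not given in the sources used here. All libraries showed an excess of genes at exactly 4 counts, so 1 fragment may stand for about 4 counts.

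Levels are CPM of the column total. Gene type, place and exons came from GENCODE 29 by Ensembl identifier, promoters from RefSeq (GRCh38.p14). Genes passing filterByExpr (19485) were scaled by TMM and tested with edgeR 4.0.16 in R 4.3.3 (quasi-likelihood test, two-sided, Benjamini-Hochberg adjusted p, threshold 0.05). The test was checked on simulated counts. Alternatives were RLE and upper-quartile factors, no filter, DESeq2 1.42.0, a replicate block, each library left out and other thresholds and distances. Settings added after seeing the data were a division of counts by 4, CPM with TMM factors for the spread, neighbours of every gene type or without shared exons, and lists without the X.

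The 43 genes, gene lists, partners and tissue markers were chosen with earlier results of these data known. Genes were named by this rule: 6 given markers, the 15 highest in overexpressing libraries, the 3 most and least even, the first 3 of each list, 3 on each side of each threshold, pairs within 500 kb, and the 5 rising and 3 falling neighbours of smallest p. The other genes of the 43 are named so that they are accounted for, except 1 whose values are not reported here though it stays in the counts and sums, and partners and tissue markers for their known roles. Figures were drawn with matplotlib 3.10.9.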

Additional observations from a re-analysis of the deposited data

How the results depend on the processing

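The number of genes chosen followed the thresholds: 18 below 0.5 CPM and 93 below 2 CPM in each control, and 100 at 2 CPM or more and 13 at 8 CPM or more in each overexpressing library. It was 44 with TMM factors, 42 of them shared (BEX1 was lost), and 45 to 58 with 1 library left out. As a share, 67.7% of the promoters had a CpG ratio above 0.6. Leaving out 1 library, all genes gave 1783 to 2917 higher and 1137 to 2226 lower (2767 and 1937 with all libraries; 1137 without overexpressing replicate 2, 1227 without control replicate 1 and 1287 without control replicate 2). Neighbours gave 19 to 26 higher and 3 to 8 lower, and list genes 101 to 149 higher and 35 to 114 lower. Neighbours within 50 kb gave 14 higher and 2 lower of 50, and those within 250 kb gave 42 and 21 of 237. Apart from these and the replicate block, the settings kept every count within 1.5 times its value. For the counts that moved with a library left out, the cause was not tested.

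With the replicate number as a block, 3194 genes were higher and 2669 lower, neighbours 28 and 12 (against 21 and 6), and list genes 178 and 72. Per the labels, samples share only a number. The same-number correlations of deviations were -0.0331, 0.052 and 0.0714 for replicates 1, 2 and 3. Those of replicates 2 and 3 were the highest of all pairs, while control replicate 1 correlated best with overexpressing replicate 2 (0.0496). Such small values do not settle whether samples were paired. Among 103 partners, the calls of SLFN13, MKS1, ESYT2, GPIHBP1, ODAD1, CAMK1 and DAPK3 were among those lost in at least 1 alternative. EBF1, which did not pass, changed sign without control replicate 2 (log2 ratio -0.54 to 0.02 with 1 library left out). Depth limits the low end: 1 CPM is 51.5 to 57.5 counts, fewer fragments if each counts for about 4, so control levels under 0.1 CPM rest on few fragments.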
